A study of Homo sapiens with 6 samples.

Results

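The 42 genes described here encode laminin chains, the proteins that link laminin networks, fibulins, fibrillins and other matrix glycoproteins, metalloproteinases with their inhibitors, and integrin subunits. They were taken by gene symbol from a table of 26372 symbols, and all 42 were in it. Of these, 23 are matrix proteins, 5 are proteases or inhibitors, 13 are integrin subunits, and 1, ITGBL1, is an integrin-like secreted protein. RNA was measured in the neuroblastoma line SH-SY5Y, whose cells resemble immature sympathetic neurons. A lentivirus gave them a short hairpin RNA, either against TDP-43 (shTDP43) or with no named target as a control (shNC). TDP-43, encoded by TARDBP, is an RNA-binding protein of the nucleus. In both groups puromycin selection lasted 2 weeks at 2 µg/mL, followed by culture in 1 µg/mL, and each group had 3 libraries of poly(A)-selected RNA. Whether a group's libraries stem from independent infections or dishes is not labelled, so p-values reflect the scatter of these samples alone, and that scatter may be technical. The samples hold 1 hairpin against TDP-43 and no rescue, so an effect of TDP-43 and any other difference between the infected populations cannot be told apart.

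Laminins are secreted trimers of an alpha, a beta and a gamma chain that self-assemble into the basement membrane sheet, where nidogens, perlecan and agrin tie them to collagen and to the cell. Integrins are surface receptors made of an alpha and a beta subunit that bind laminins, collagens and other matrix proteins outside the cell and the actin cytoskeleton inside it. Metalloproteinases cut matrix proteins, and the TIMP proteins inhibit them. In neural crest derivatives such as the sympathetic lineage, this system guides migration and neurite growth.

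Levels are FPKM, fragments counted per length of the gene and per size of the library, so they can be compared between genes. Differences are log2 fold changes on the log2(FPKM + 1) scale, shTDP43 over shNC, tested with limma over every gene that averaged 1 FPKM or more and called at a Benjamini-Hochberg adjusted p under 0.05. Percentages of the shNC level are ratios of mean FPKM. Estimated depth relative to shTDP43 replicate 1 was 1 to 1.11 in shTDP43 libraries and 1.15 to 1.28 in shNC libraries, so depth and group cannot be told apart for genes near 0. The small nucleolar RNA SNORD3A was far lower in shTDP43 replicate 3 and shNC replicate 1 than in the other libraries of their groups. TARDBP (GRCh38 chromosome 1, 11012654 to 11030528) had 36.0, 33.1 and 34.8 FPKM in shTDP43 libraries, against 56.1, 56.2 and 56.6 FPKM in shNC libraries, and fell to 61.5% of the shNC level (limma adjusted p = 2.84e-06). An exact two-sided permutation test of these 6 values gave p = 0.1, the smallest that 3 against 3 libraries can reach.

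Most tested genes of this set were lower in shTDP43 cells. Of the 34 genes that averaged 1 FPKM or more, 21 fell, 4 rose and 9 did not pass. Falls were thus 61.8% of the tested set, where 19.6% of all 13263 tested genes fell, and rises were 11.8%, where 18.5% of all tested genes rose. The set, and the lists further below, were chosen with earlier results of these data known, so such shares describe them and test nothing. The median log2 fold change of the set was -0.20, against 0.00122 over all tested genes. In 24 of the 34 genes (70.6%) every shTDP43 library lay below every shNC library, an arrangement found in 25.4% of all tested genes, and in 5 (14.7%) every one lay above, against 25.3%. Groups without overlap in either direction made up 50.7% of all tested genes, and 38.1% of all tested genes were called in either direction. The falls were moderate: apart from THBS1 at 35.0% and ITGA7 at 51.0% of the shNC level, those that passed lay between 61.7% and 93.6%. Matrix proteins had 10 falls and 2 rises among 16 tested genes, proteases and inhibitors 3 falls and 0 rises among 5, and integrin subunits 8 falls and 1 rise among 12. The other rise was ITGBL1. In bulk samples, fewer cells of a type and less RNA per cell cannot be told apart. ITGA6 and MMP14 reached the mean of 1 FPKM only through their shNC libraries and ITGBL1 only through its shTDP43 libraries. The counts and shares above include them, with ITGA6 as a fall and ITGBL1 as a rise.

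**Figure D1:**
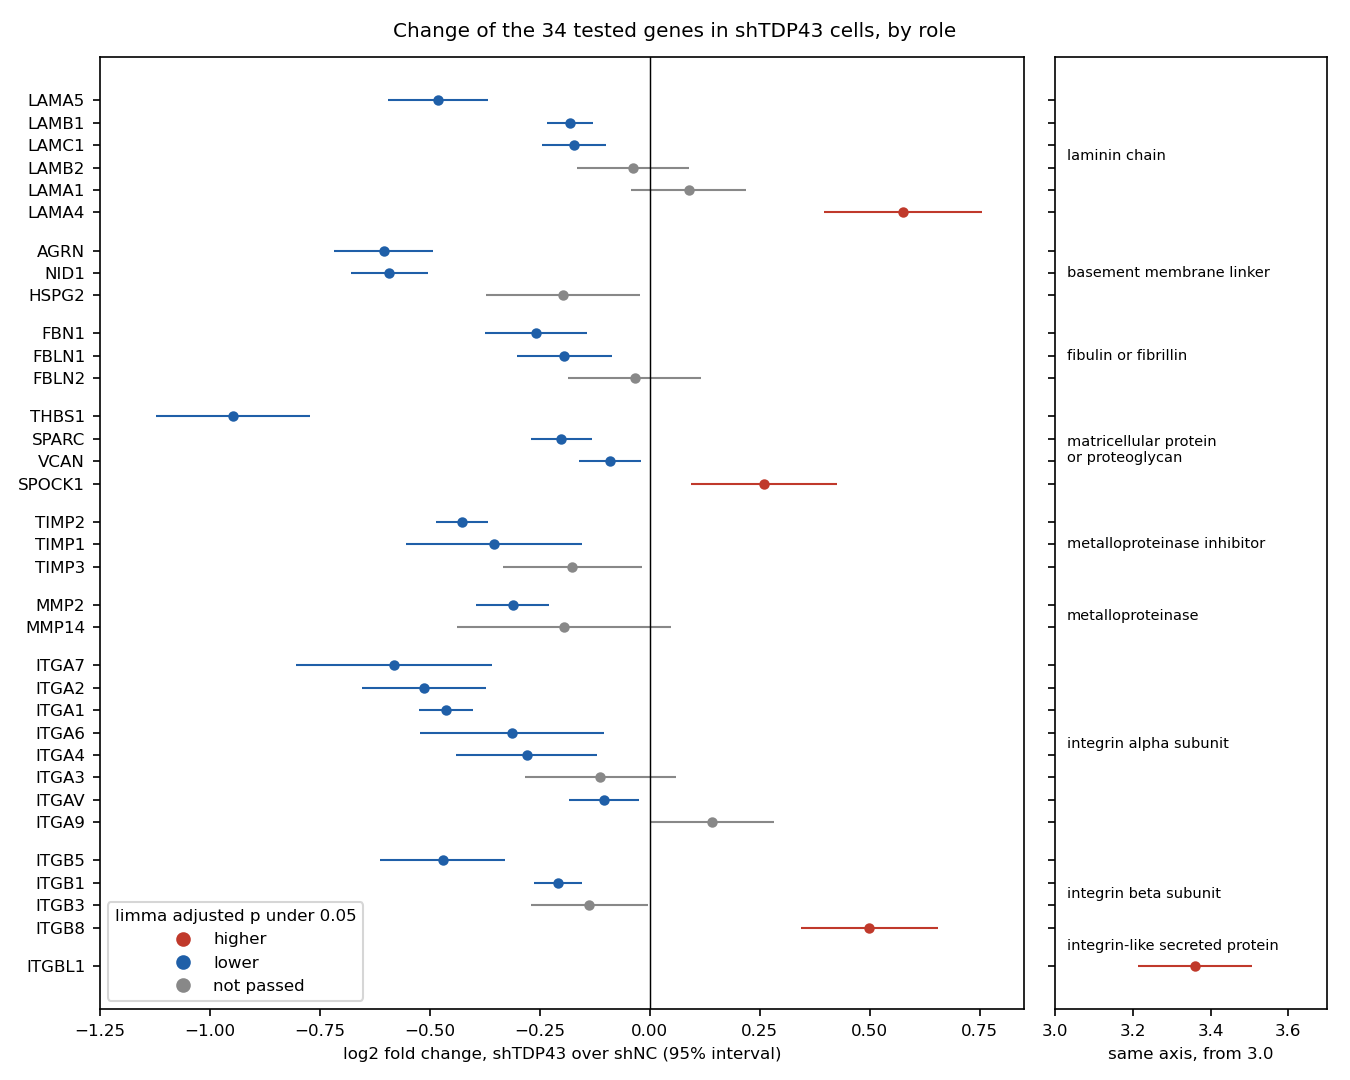
Log2 fold change (x axis, shTDP43 over shNC on the log2(FPKM + 1) scale) with its 95% interval for the 34 tested genes, grouped by role (y axis); blue genes were lower, red higher and grey did not pass. Most points lie left of 0, THBS1 farthest. LAMA4, ITGB8 and SPOCK1 lie to the right, as do LAMA1 and ITGA9, which did not pass. ITGBL1 was listed at 0 in shNC, so its place on the right-hand panel depends on the pseudocount.

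The laminin alpha chain genes changed in opposite directions. LAMA5 (chromosome 20, 62309065 to 62367312), whose chain is widespread in adult basement membranes, had 4.80, 4.61 and 5.06 FPKM in shTDP43 libraries, against 7.07, 7.18 and 7.14 FPKM in shNC libraries. Every shTDP43 library was below every shNC library, and LAMA5 fell to 67.7% of the shNC level (log2 fold change -0.48, SE 0.05, limma adjusted p = 0.000194). LAMA4 (chromosome 6, 112107931 to 112254985), whose chain is found in vessel walls, muscle and nerve, had 3.21, 3.18 and 2.79 FPKM in shTDP43 libraries, against 1.83, 1.56 and 1.79 FPKM in shNC libraries. Every shTDP43 library was above every shNC library, and LAMA4 rose to 177% of the shNC level (log2 fold change 0.57, SE 0.08, limma adjusted p = 0.000847). LAMA1, an embryonic chain, had 3.46 ± 0.0377 FPKM in shTDP43 and 3.20 ± 0.111 FPKM in shNC (SD, n = 3 each; limma adjusted p = 0.256; 95% interval of the log2 difference -0.04 to 0.22). LAMA1 did not pass, although every shTDP43 library was above every shNC library. LAMA3, a chain of epithelial laminins, was below the level tested, with 0.686, 0.824 and 1.19 FPKM in shTDP43 libraries and 0.372, 0.567 and 0.353 FPKM in shNC libraries. LAMA2, the main alpha chain of muscle, was listed at 0 in all 6 libraries.

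The summed level of the alpha chain genes nevertheless differed little, at 12.2 ± 0.210 FPKM in shTDP43 and 12.5 ± 0.0940 FPKM in shNC (SD, n = 3 each), and the groups overlapped. LAMA5 made up 39.4 ± 1.26% of this sum in shTDP43 and 57.1 ± 0.845% in shNC. LAMA4 made up 25.0 ± 2.30% in shTDP43 and 13.8 ± 1.09% in shNC. The ratio of LAMA4 to LAMA5 was 0.668, 0.690 and 0.552 in shTDP43 libraries, against 0.259, 0.217 and 0.251 in shNC libraries. It was the first of 5 quantities tested over libraries, each with an exact two-sided permutation test (p = 0.1, the smallest possible, and 0.25 after Benjamini-Hochberg adjustment over the 5). Since every shTDP43 library lay above in LAMA4 and below in LAMA5, that value was fixed beforehand and adds nothing to the single-gene results. The exact permutation test of the alpha chain sum gave p = 0.2, and 0.25 adjusted.

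The beta chain gene LAMB1 and the gamma chain gene LAMC1 stood far above the alpha chain genes, while LAMB2 did not. LAMB1 had 68.0, 67.1 and 66.8 FPKM in shTDP43 libraries, against 77.1, 77.1 and 75.0 FPKM in shNC libraries, and fell to 88.0% of the shNC level (limma adjusted p = 0.000549). LAMC1 had 26.1, 26.6 and 25.3 FPKM in shTDP43 libraries, against 29.7, 29.98 and 28.5 FPKM in shNC libraries, and fell to 88.4% (limma adjusted p = 0.00374). The groups did not overlap in either gene. The ratio of LAMB1 to LAMC1 was 2.59 ± 0.0575 in shTDP43 and 2.60 ± 0.0281 in shNC (SD, n = 3 each; exact permutation p = 1). LAMB2, the beta chain of synaptic and kidney laminins, had 4.39 ± 0.0441 FPKM in shTDP43 and 4.54 ± 0.241 FPKM in shNC and did not pass (limma adjusted p = 0.625; 95% interval of the log2 difference -0.16 to 0.09).

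To show how the promoters of the alpha chain genes that moved apart differ in make-up, the RefSeq sequences (GRCh38.p14) from 250 bases before to 50 bases after each start are given 5′ to 3′ on the gene's strand. Capitals mark the GC box GGGCGG on either strand. LAMA5 lies at chr20:62367263-62367562, minus strand, and LAMA4 at chr6:112254518-112254817, minus strand. The LAMA4 sequence lies wholly inside the gene's interval, whose 5′ end is at 112254985, so it belongs to an internal start. The LAMA5 sequence spans the 5′ end of its gene.
LAMA5: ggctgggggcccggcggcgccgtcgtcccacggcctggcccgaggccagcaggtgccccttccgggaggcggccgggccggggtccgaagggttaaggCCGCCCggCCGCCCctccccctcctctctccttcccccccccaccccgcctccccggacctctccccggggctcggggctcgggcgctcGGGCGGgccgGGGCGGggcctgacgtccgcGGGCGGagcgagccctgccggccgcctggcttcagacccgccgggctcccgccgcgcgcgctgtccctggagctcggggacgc
LAMA4: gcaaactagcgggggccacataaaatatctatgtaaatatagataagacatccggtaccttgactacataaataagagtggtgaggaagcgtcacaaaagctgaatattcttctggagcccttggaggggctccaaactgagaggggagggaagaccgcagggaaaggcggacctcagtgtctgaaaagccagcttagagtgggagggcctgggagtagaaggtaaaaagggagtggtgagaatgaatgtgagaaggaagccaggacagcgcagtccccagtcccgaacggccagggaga
The LAMA5 sequence is 82.7% G or C and holds 5 GC boxes, while the LAMA4 sequence is 51.3% G or C and holds 0. The median over the promoters of 9778 tested genes was 65.3% G or C, and 70.1% of them held a GC box. Promoters were matched for 33 of the 42 genes, and among the 25 tested ones the median was 70.7% and 19 (76.0%) held a GC box. By direction, a GC box was in 12 of 17 matched promoters of genes that fell and in 2 of 3 of genes that rose. These matches describe the sequence and show no binding. LAMA1, SPOCK1, AGRN, TIMP2, MMP2, ITGA3, ITGA7, ITGA9 and ITGB3 were not matched.

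**Figure D2:**
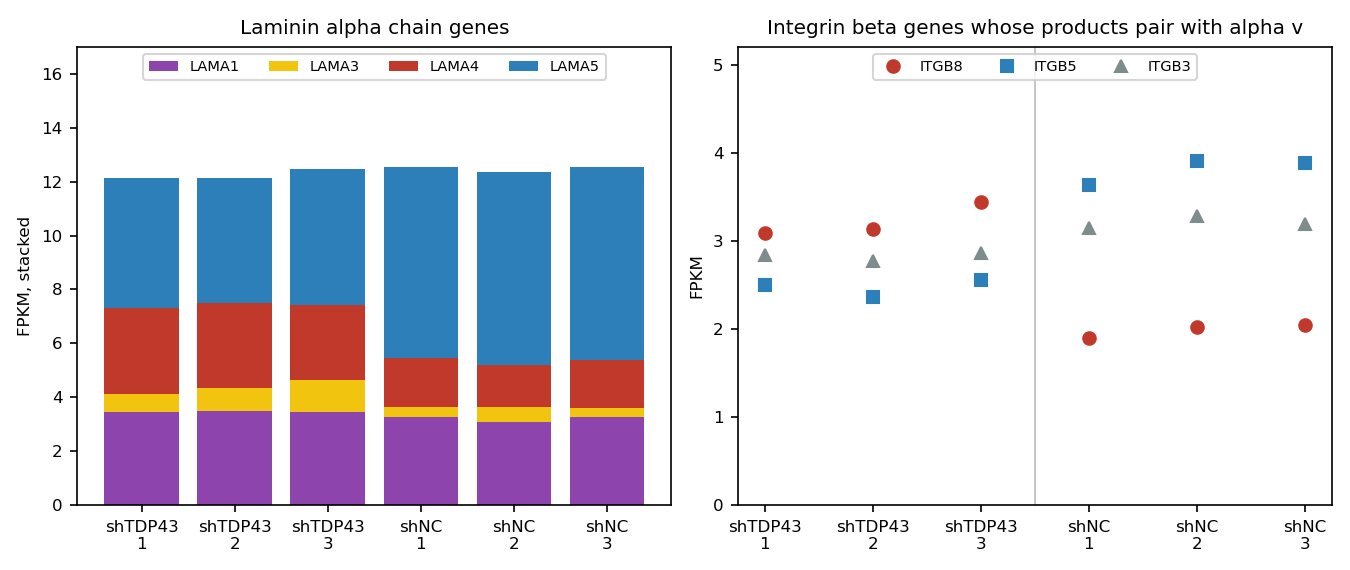
Left, FPKM of the laminin alpha chain genes stacked for each library (y axis), with shTDP43 libraries before shNC libraries; the stacks have nearly the same height, with more LAMA4 and less LAMA5 in shTDP43. Right, FPKM of the integrin beta genes ITGB8, ITGB5 and ITGB3 in the same libraries; ITGB8 is above ITGB5 in each shTDP43 library and below it in each shNC library.

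Of the genes that link laminin networks, 3 were tested and 2 fell, where 19.6% of all tested genes fell. NID1 (chromosome 1, 235975830 to 236065090), which encodes nidogen, the bridge between laminin and type IV collagen, had 14.3, 13.9 and 13.1 FPKM in shTDP43 libraries, against 21.3, 21.5 and 21.0 FPKM in shNC libraries. It fell to 64.8% of the shNC level (log2 fold change -0.59, SE 0.04, limma adjusted p = 1.56e-05). AGRN (chromosome 1, 1020120 to 1056116), the gene for agrin, a heparan sulfate proteoglycan that organises the neuromuscular synapse, had 5.52, 5.07 and 5.08 FPKM in shTDP43 libraries, against 8.25, 8.65 and 8.48 FPKM in shNC libraries. It fell to 61.7% (log2 fold change -0.60, SE 0.05, limma adjusted p = 5.51e-05). The groups were well apart in both genes. HSPG2, the perlecan gene, had 1.67, 1.90 and 1.93 FPKM in shTDP43 libraries and 2.19, 2.15 and 2.41 FPKM in shNC libraries, and did not pass (limma adjusted p = 0.0744; 95% interval of the log2 difference -0.37 to -0.02). Every shTDP43 library of HSPG2 was nevertheless below every shNC library, and it passed as lower when the variance was not allowed to vary with level (limma adjusted p = 0.0288; 0.0288 to 0.216 over all alternatives). In GENCODE, 11.7% of the exonic bases of HSPG2 also lie in exons of LDLRAD2 on the other strand. NID2, the second nidogen gene, was below the level tested, with 0.596 ± 0.0570 FPKM in shTDP43 and 1.13 ± 0.343 FPKM in shNC (SD, n = 3 each). Of its exonic bases, 29.96% also lie in exons of RTRAF on the other strand.

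Among fibulins and fibrillins, the microfibril gene FBN1 had 6.28, 6.59 and 6.24 FPKM in shTDP43 libraries, against 7.54, 7.64 and 8.27 FPKM in shNC libraries. It fell to 81.5% of the shNC level (limma adjusted p = 0.00483). FBLN1, a fibulin gene of basement membranes and elastic fibres, had 22.4, 24.6 and 24.1 FPKM in shTDP43 libraries, against 28.9, 26.5 and 26.5 FPKM in shNC libraries, and fell to 86.9% (limma adjusted p = 0.0126). The groups did not overlap in either gene, though in FBLN1 they were close, and its call was lost without shNC replicate 1 and shTDP43 replicate 3 together (limma adjusted p = 0.0656; range over all alternatives 0.00954 to 0.0656). FBLN2 had 3.59 ± 0.0620 FPKM in shTDP43 and 3.71 ± 0.306 FPKM in shNC and did not pass (limma adjusted p = 0.716; 95% interval of the log2 difference -0.19 to 0.12). FBN2, the fibrillin of developing tissue, was listed at 0 in all 3 shTDP43 libraries and in 2 shNC libraries, and at 0.00371 FPKM in shNC replicate 2.

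The largest fall among the tested genes of the set was in a matricellular gene. THBS1 (chromosome 15, 39581079 to 39599466) encodes thrombospondin, a secreted protein that binds integrins and CD47, activates TGF-beta and, from astrocytes, promotes synapse formation. It had 1.04, 1.06 and 0.911 FPKM in shTDP43 libraries, against 2.99, 2.69 and 2.90 FPKM in shNC libraries. No shTDP43 library came near an shNC library, and THBS1 fell to 35.0% of the shNC level (log2 fold change -0.95, SE 0.08, limma adjusted p = 5.21e-05). The log2(FPKM + 1) scale understates this change, since the gene is low. THBS2, its close relative, was below the level tested at 0.191 ± 0.0367 FPKM in shTDP43 and 0.245 ± 0.0140 FPKM in shNC (SD, n = 3 each).

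Because THBS1 had the largest fall among the tested genes of the set, its promoter is shown, from RefSeq (GRCh38.p14, chr15:39580829-39581128, plus strand, 5′ to 3′). Capitals mark the GC box GGGCGG and the TEAD motif GGAATG, each searched on both strands.
THBS1: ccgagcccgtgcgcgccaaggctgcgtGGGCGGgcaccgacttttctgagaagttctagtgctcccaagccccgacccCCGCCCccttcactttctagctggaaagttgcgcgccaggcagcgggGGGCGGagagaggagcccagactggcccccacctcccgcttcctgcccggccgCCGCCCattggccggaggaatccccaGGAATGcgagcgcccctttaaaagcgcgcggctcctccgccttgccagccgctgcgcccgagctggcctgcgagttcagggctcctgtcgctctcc
The TEAD motif begins 46 bases before the start, and there are 4 GC boxes. GGAATG was present in the promoters of 4 of 25 tested genes of the set, namely THBS1, SPARC, FBN1 and ITGB1, against 10.5% of the promoters of all tested genes. The AP-1 motif TGANTCA, searched on both strands, was in 0 of the 25 and in 4.12% of all. The SRF CArG box was in 0 of the 25 and in 0.90% of all, and TATAAA, searched on the gene's strand, in 0 of the 25 and in 3.34% of all. Such a match is a description of the sequence and shows no binding.

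SPARC, a collagen-binding glycoprotein gene, had 22.5, 23.4 and 22.3 FPKM in shTDP43 libraries, against 26.3, 25.9 and 26.7 FPKM in shNC libraries. It fell to 86.5% of the shNC level (limma adjusted p = 0.00136), with no overlap of the groups. VCAN, which encodes the large proteoglycan versican, had 14.8, 14.9 and 14.6 FPKM in shTDP43 libraries, against 15.96, 15.8 and 15.7 FPKM in shNC libraries. It passed as lower by a small margin, at 93.6% of the shNC level (limma adjusted p = 0.0499). That call was lost without any 1 of the 6 libraries (limma adjusted p = 0.0763 to 0.129; 0.0390 to 0.231 over all alternatives). SPOCK1, the gene for the neural proteoglycan testican, was the exception in direction, with 7.52, 7.31 and 6.22 FPKM in shTDP43 libraries, against 5.74, 5.94 and 5.37 FPKM in shNC libraries. It rose to 123% of the shNC level (limma adjusted p = 0.0225). The call was lost without shTDP43 replicate 1, shTDP43 replicate 2, shNC replicate 1 or shNC replicate 3 (limma adjusted p = 0.0527 to 0.0726; 0.00580 to 0.0726 over all alternatives), which left 1 rise among the matrix proteins in each case. SPOCK2 was below the level tested, with 0.773 ± 0.206 FPKM in shTDP43 and 1.12 ± 0.296 FPKM in shNC, and the groups overlapped. BGN, the biglycan gene, was nearly absent, at 0.0206 FPKM or less in shTDP43 libraries and 0.0722 FPKM or less in shNC libraries.

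The inhibitors and proteases fell together where they passed. TIMP2 (chromosome 17, 78852977 to 78925387), which inhibits MMP2 and also takes part in its activation, had 81.0, 81.5 and 82.4 FPKM in shTDP43 libraries, against 113, 107 and 110.1 FPKM in shNC libraries. It fell to 74.2% of the shNC level (log2 fold change -0.43, SE 0.03, limma adjusted p = 1.12e-05). MMP2 (chromosome 16, 55478830 to 55506691), a gelatinase that cuts type IV collagen, had 55.1, 55.3 and 54.8 FPKM in shTDP43 libraries, against 68.4, 72.2 and 65.1 FPKM in shNC libraries. It fell to 80.2% (log2 fold change -0.31, SE 0.04, limma adjusted p = 0.000373). The groups did not overlap in either gene. The ratio of MMP2 to TIMP2 was 0.674 ± 0.00795 in shTDP43 and 0.624 ± 0.0450 in shNC (SD, n = 3 each), and the groups overlapped (exact permutation p = 0.2, 0.25 adjusted over the 5 quantities).

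TIMP1 had 6.80, 7.18 and 6.83 FPKM in shTDP43 libraries, against 7.77, 10.3 and 9.50 FPKM in shNC libraries, with shNC replicate 1 close to the shTDP43 libraries. It fell to 75.4% of the shNC level (limma adjusted p = 0.0137). TIMP3, the inhibitor that stays bound to the matrix, had 4.24 ± 0.148 FPKM in shTDP43 and 4.93 ± 0.471 FPKM in shNC (SD, n = 3 each), without overlap. It did not pass (limma adjusted p = 0.0761; 95% interval of the log2 difference -0.33 to -0.02), but it did without shNC replicate 1 (limma adjusted p = 0.0420; 0.0420 to 0.229 over all alternatives). MMP14, the membrane-bound protease that activates MMP2, had 0.914 ± 0.210 FPKM in shTDP43 and 1.18 ± 0.0891 FPKM in shNC and did not pass (limma adjusted p = 0.180; 95% interval -0.44 to 0.05).

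**Figure D3:**
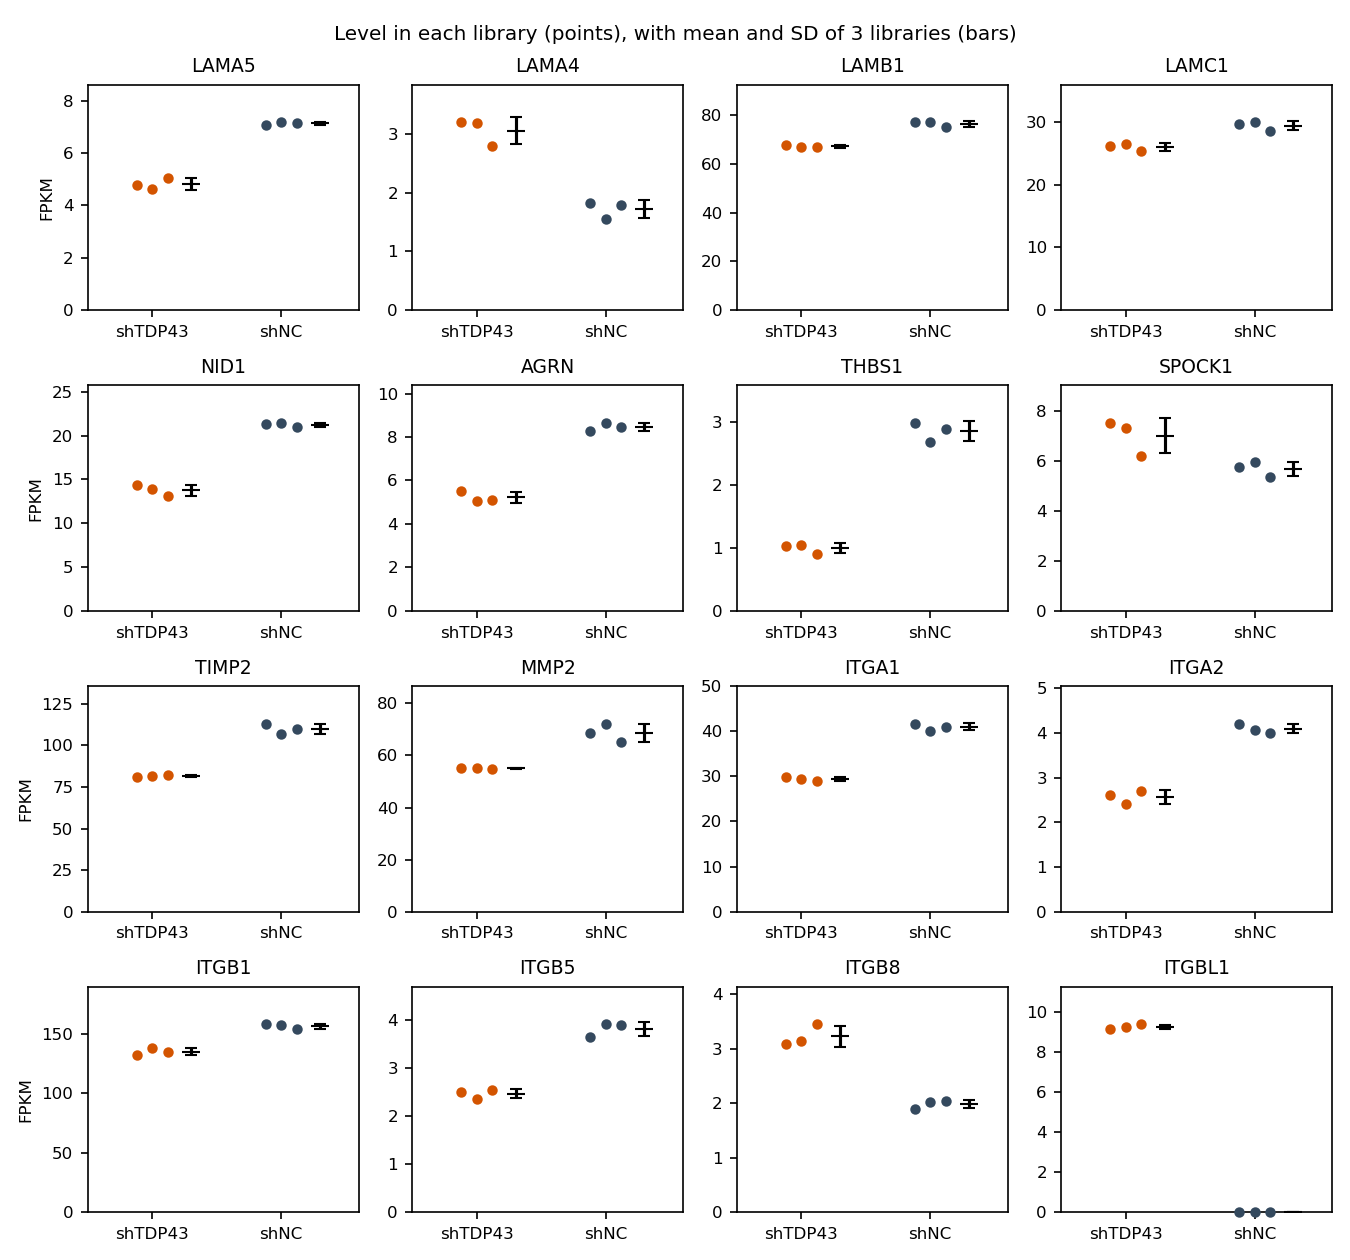
FPKM (y axis, from 0) of 16 genes in each of the 3 shTDP43 and 3 shNC libraries (points), with the mean and SD of the 3 beside them. The 16 genes were taken from those that passed, and the groups do not overlap in any panel. Groups without overlap made up 50.7% of all tested genes. LAMA4, SPOCK1, ITGB8 and ITGBL1 are higher in shTDP43 and the other 12 genes lower.

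Among the 8 tested integrin alpha subunit genes 6 fell and 0 rose, where 19.6% of all tested genes fell and 18.5% rose. Both tested collagen receptor subunits were among the falls. ITGA1 (chromosome 5, 52787916 to 52959209), whose product pairs with that of ITGB1 to bind collagens and laminins, had 29.9, 29.4 and 28.97 FPKM in shTDP43 libraries, against 41.7, 40.1 and 41.0 FPKM in shNC libraries. It fell to 71.8% of the shNC level (log2 fold change -0.46, SE 0.03, limma adjusted p = 9.06e-06). ITGA2 (chromosome 5, 52989352 to 53094779), its neighbour on the chromosome and also a collagen receptor subunit, had 2.61, 2.40 and 2.70 FPKM in shTDP43 libraries, against 4.21, 4.08 and 4.00 FPKM in shNC libraries. It fell to 62.8% (limma adjusted p = 0.000455). The groups were far apart in both genes. The laminin receptor subunit gene ITGA7 (chromosome 12, 55684568 to 55716400) had 1.04, 1.26 and 0.857 FPKM in shTDP43 libraries, against 2.08, 1.89 and 2.22 FPKM in shNC libraries, and fell to 51.0% (limma adjusted p = 0.00234). ITGA6, another laminin receptor subunit gene, fell to 65.0%, with 0.816 ± 0.118 FPKM in shTDP43 and 1.26 ± 0.0771 FPKM in shNC (limma adjusted p = 0.0271). Its call was lost without shTDP43 replicate 1, shTDP43 replicate 3 or shNC replicate 2 (limma adjusted p = 0.0506 to 0.0739; 0.00691 to 0.156 over all alternatives that tested it), and without shNC replicate 1 or shNC replicate 3 its mean was under 1 FPKM. ITGA3, a further laminin receptor subunit gene, did not pass, with 2.70 ± 0.192 FPKM in shTDP43 and 3.00 ± 0.253 FPKM in shNC (limma adjusted p = 0.273; 95% interval of the log2 difference -0.28 to 0.06).

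ITGA4, a receptor subunit gene for fibronectin and VCAM1, fell to 74.7%, with 1.70 ± 0.102 FPKM in shTDP43 and 2.27 ± 0.0164 FPKM in shNC (limma adjusted p = 0.0148). It did not pass without both libraries low in SNORD3A (limma adjusted p = 0.0796; 0.00259 to 0.0796 over all alternatives). ITGAV, whose product binds matrix proteins with the tripeptide RGD, fell slightly to 92.6% (17.98 ± 0.314 FPKM in shTDP43 and 19.4 ± 0.643 FPKM in shNC; limma adjusted p = 0.0440). The ITGAV call held without shNC replicate 1 but was lost without any other single library (limma adjusted p = 0.0559 to 0.146; 0.0348 to 0.146 over all alternatives). ITGA9, a receptor subunit gene for tenascin, had 6.75 ± 0.193 FPKM in shTDP43 and 6.04 ± 0.523 FPKM in shNC and did not pass (limma adjusted p = 0.105; 95% interval of the log2 difference -0.00017 to 0.28). Without shNC replicate 1 it passed as higher (limma adjusted p = 0.0310; 0.0310 to 0.282 over all alternatives), which made 2 rises among the integrin subunits. ITGA5, the fibronectin receptor subunit gene, was nearly absent, with 0.0538 ± 0.0150 FPKM in shTDP43 and 0.166 ± 0.0548 FPKM in shNC.

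By level, the order in shTDP43 was ITGA1, ITGAV, ITGA9, ITGA3, ITGA2, ITGA4, ITGA7, ITGA6 and ITGA5, in which ITGA3 and ITGA2 overlapped, as did ITGA7 and ITGA6. In shNC the order was the same except that ITGA2 lay above ITGA3 in every library. The 9 alpha subunit genes summed to 63.0 ± 0.556 FPKM in shTDP43 and 79.3 ± 1.07 FPKM in shNC. ITGA1 made up 46.7 ± 0.726% of that sum in shTDP43 and 51.7 ± 0.306% in shNC (SD, n = 3 each).

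ITGB1 (chromosome 10, 32900318 to 32958230), whose product is the shared partner of most of these alpha subunits, was the highest gene of the set. It had 132, 138 and 135 FPKM in shTDP43 libraries, against 158, 157 and 154 FPKM in shNC libraries, and fell to 86.4% of the shNC level (log2 fold change -0.21, SE 0.02, limma adjusted p = 0.000321). ITGB1 made up 94.1 ± 0.259% of the summed level of the 4 beta subunit genes in shTDP43 and 94.6 ± 0.207% in shNC.

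The remaining beta subunits, which pair with the product of ITGAV, moved apart. ITGB8 (chromosome 7, 20329766 to 20415754), whose product binds latent TGF-beta and is expressed in neural tissue, had 3.09, 3.13 and 3.44 FPKM in shTDP43 libraries, against 1.90, 2.02 and 2.04 FPKM in shNC libraries. It rose to 162% of the shNC level (log2 fold change 0.50, SE 0.07, limma adjusted p = 0.000828). ITGB5 (chromosome 3, 124761948 to 124901418), a vitronectin receptor subunit gene, had 2.501, 2.36 and 2.55 FPKM in shTDP43 libraries, against 3.64, 3.91 and 3.89 FPKM in shNC libraries, and fell to 64.9% (log2 fold change -0.47, SE 0.06, limma adjusted p = 0.000701). The order of these genes was thus reversed: the ratio of ITGB8 to ITGB5 was 1.24, 1.33 and 1.35 in shTDP43 libraries, against 0.523, 0.516 and 0.525 in shNC libraries. The exact permutation test of this ratio gave its smallest possible value (p = 0.1, 0.25 adjusted over the 5 quantities). That value too was fixed beforehand, since every shTDP43 library lay above in ITGB8 and below in ITGB5. ITGB3 had 2.82 ± 0.0505 FPKM in shTDP43 and 3.21 ± 0.0716 FPKM in shNC, without overlap, and did not pass (limma adjusted p = 0.0965; 95% interval of the log2 difference -0.27 to -0.0038). It passed as lower without the variance trend (limma adjusted p = 0.0173; 0.0173 to 0.376 over all alternatives). In GENCODE, 51.6% of the exonic bases of ITGB3 are shared with a read-through gene on the same strand.

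ITGBL1 (chromosome 13, 101452675 to 101720856) encodes a secreted protein with repeats like those of integrin beta subunits and is no receptor subunit. It had 9.16, 9.24 and 9.40 FPKM in shTDP43 libraries and was listed at 0 in all 3 shNC libraries. No fold is given, because a listed 0 may stand for an estimate that failed. FGF14, which overlaps it on the opposite strand, had 33.3, 34.7 and 29.6 FPKM in shTDP43 libraries and was likewise listed at 0 in all 3 shNC libraries. In GENCODE, 4354 exonic bases of ITGBL1 (70.5% of its exonic bases) also lie in exons of FGF14. A directional kit was used, per the labels, but no source used here says if counting was stranded, and reads from the 2 genes cannot be told apart. The ITGBL1 promoter (RefSeq, GRCh38.p14, chr13:101452425-101452724, plus strand, 5′ to 3′) is shown because the gene was listed at 0 in one group, with the GC box GGGCGG of either strand in capitals.
ITGBL1: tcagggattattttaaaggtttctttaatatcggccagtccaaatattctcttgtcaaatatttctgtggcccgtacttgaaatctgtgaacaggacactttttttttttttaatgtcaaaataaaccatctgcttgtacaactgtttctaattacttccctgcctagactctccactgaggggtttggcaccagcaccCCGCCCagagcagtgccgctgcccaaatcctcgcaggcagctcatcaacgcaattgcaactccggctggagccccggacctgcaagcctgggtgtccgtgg
It is 47.7% G or C, lower than the median of 65.3% over the promoters of tested genes, and holds 1 GC box.

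TDP-43 binds RNA at stretches of alternating U and G, many of them in introns, which were not analysed here. In the longest spliced coding transcript of each gene in GENCODE, an unbroken TG run of at least 16 bases was found in 2 of the 34 tested genes (5.88%), against 345 of 11600 tested genes with such a transcript (2.97%). With a minimum of 12 bases the shares were 5.88% and 5.44%. The 2 genes were ITGBL1, with a run of 35 bases, and ITGA1, with a run of 18 bases. Of the genes below the level tested, BGN had a run of 45 bases and SPOCK2 one of 16 bases. A run of this kind is a description of the sequence and shows no binding.

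Genes in a list of matrix receptors outside the integrin family were lower more often than higher. That list also holds other surface proteins, such as the co-receptor NRP1 and the tetraspanin CD9. Of 22 tested genes in that list of 26, 13 fell and 4 rose, with a median log2 fold change of -0.15. Over all tested genes, 19.6% fell and 18.5% rose. The largest falls were in NRP1, a semaphorin and VEGF co-receptor gene, to 27.8% of the shNC level (1.26 ± 0.330 FPKM in shTDP43 and 4.53 ± 0.597 FPKM in shNC). CD9, an integrin-associated tetraspanin gene, fell to 37.0% (3.23 ± 0.815 FPKM in shTDP43 and 8.72 ± 1.35 FPKM in shNC). The hyaluronan receptor gene CD44 fell to 41.3%. Of the rises, the heparan sulfate proteoglycan gene SDC2 reached 164% (46.5 ± 1.52 FPKM in shTDP43 and 28.4 ± 0.340 FPKM in shNC), the endocytic receptor gene LRP1 121% and SDC3 110.3%. DAG1, the dystroglycan gene and a receptor for laminin and agrin, did not pass (16.4 FPKM in shTDP43 and 16.5 FPKM in shNC; limma adjusted p = 0.941).

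Genes of the proteins that tie integrins to actin changed in both directions. Of 28 tested focal adhesion genes in a list of 33, 11 fell and 4 rose, with a median of -0.03. The shares over all tested genes were 19.6% for falls and 18.5% for rises. The falls with the largest changes were TNS3, a tensin gene, at 46.5% of the shNC level (3.44 ± 0.0911 FPKM in shTDP43 and 7.38 ± 0.426 FPKM in shNC), ZYX, the zyxin gene, at 65.0%, and TNS1 at 73.0%. FLNA, the gene for the actin crosslinker filamin A, rose to 145% (34.6 ± 1.02 FPKM in shTDP43 and 23.9 ± 0.231 FPKM in shNC), CRKL to 109.2% and the talin gene TLN1 to 107.6%. The kinase genes PTK2 (limma adjusted p = 0.238) and SRC (limma adjusted p = 0.751) did not pass.

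Other matrix and fibre-assembly genes fell in 8 and rose in 4 of 17 tested, in a list of 30, with a median of -0.15. Here too, the shares over all tested genes were 19.6% for falls and 18.5% for rises. LUM, the lumican gene, fell to 44.2% and the fibronectin gene FN1 to 66.0% of the shNC level. TNR, the gene for a tenascin of nervous tissue, fell to 67.7%. LUM and FN1 also count among the fibroblast markers. LUM and LTBP2, both counted among the falls, reached the mean of 1 FPKM only through their shNC libraries. TNC, another tenascin gene, rose to 184%, COL4A2 to 130% (14.4 ± 0.224 FPKM in shTDP43 and 11.1 ± 0.392 FPKM in shNC) and the brain proteoglycan gene NCAN to 124%. COL4A1, which encodes the partner chain of COL4A2 in basement membrane collagen, did not pass (8.54 ± 0.240 FPKM in shTDP43 and 8.35 ± 0.625 FPKM in shNC; limma adjusted p = 0.695). Of other members of the same families, 11 of 38 were tested, 3 fell and 0 rose, with a median of -0.10, beside the same shares over all tested genes. Those that fell were EFEMP2 to 73.2%, FBLN7 to 75.3% and MMP16 to 89.1% of the shNC level.

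**Figure D4:**
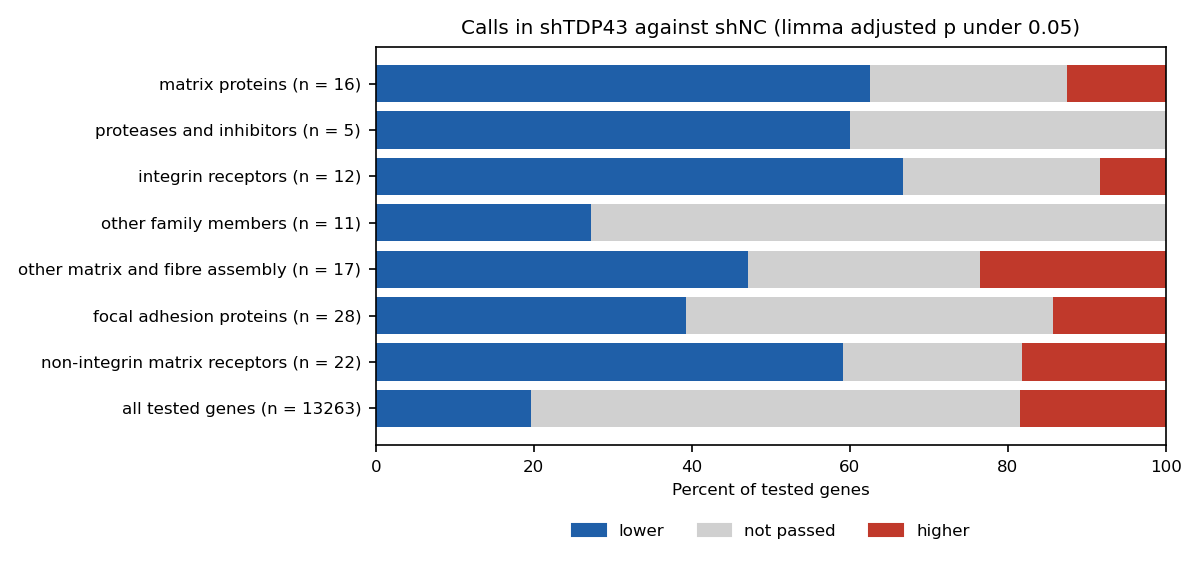
Share of tested genes (x axis, percent) that were lower, did not pass or were higher in shTDP43 against shNC, for the 3 classes of the set, 4 lists of related genes and all tested genes (n in the labels). The 3 classes and the list labelled non-integrin matrix receptors, which also holds other surface proteins, have the largest shares of falls. All tested genes have 19.6%.

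Summed levels of the Schwann and glial, fibroblast, epithelial and kidney, and noradrenergic markers did not overlap between the groups, in different directions. Those of the endothelial and blood markers did overlap. Beside the marker counts below, 19.6% of all tested genes fell and 18.5% rose. Of the 8 markers of Schwann cells and glia, 2 were tested and both fell, and the summed level of the 8 was 9.23 to 9.45 FPKM in shTDP43 libraries, against 19.8 to 21.3 FPKM in shNC libraries. PMP22 made up most of that sum, while SOX10 stayed at or below 0.368 FPKM in every library. Of 13 fibroblast or mesenchymal markers 8 were tested, 5 fell and 3 rose, and their sum was 435 to 449 FPKM in shTDP43 libraries, against 386 to 393 FPKM in shNC libraries. TWIST1, with 267 ± 8.34 FPKM in shTDP43 and 184 ± 3.23 FPKM in shNC, and PDGFRA, with 72.2 ± 1.14 FPKM in shTDP43 and 35.5 ± 0.734 FPKM in shNC, had the largest increases within that sum. VIM, the vimentin gene and one of the most abundant markers of the list, fell to 65.8% of the shNC level, with 84.9 ± 0.363 FPKM in shTDP43 and 129 ± 0.381 FPKM in shNC (SD, n = 3 each). COL3A1 fell to 11.7% and ACTA2 to 16.98% of the shNC level, whereas PDGFRA rose to 203%, TWIST1 to 145% and PDGFRB to 122.6%. COL1A2, a defining fibroblast marker, stayed at or below 0.0950 FPKM in every library, and PRRX1 was at 0 except for 0.0115 FPKM in shNC replicate 3. Of 7 epithelial and kidney markers 2 were tested, and KRT18 fell and EPCAM did not pass. The sum was 1.01 to 1.79 FPKM in shTDP43 libraries, against 3.05 to 3.71 FPKM in shNC libraries. Among the markers that fell, S100B, ACTA2, LUM and KRT18 reached the mean of 1 FPKM only through their shNC libraries. Endothelial markers (0 of 6 tested) summed to 0.0587 to 0.478 FPKM in shTDP43 libraries and 0.336 to 0.618 FPKM in shNC libraries, with PECAM1 at or below 0.00687 FPKM. Blood markers (0 of 6 tested) summed to 1.53 to 1.95 FPKM in shTDP43 libraries and 1.08 to 1.65 FPKM in shNC libraries, with CD3E and HBB at 0 in all libraries. The part of such cells in the results above was not tested. Noradrenergic neuroblastoma markers were high in both groups, with a sum of 1511 to 1559 FPKM in shTDP43 libraries and 1482 to 1489 FPKM in shNC libraries (5 of 8 tested rose and 2 fell), although TH, which encodes the first enzyme of catecholamine synthesis, stayed at or below 0.207 FPKM.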

How the data were processed

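The authors deposited a table of FPKM values per gene symbol for each of the 6 libraries. Per the submitters' processing notes, the tools included TopHat2 2.1.0, SAMtools and Cuffdiff 2.2.1, with build hg38. Not given in the sources used here: the annotation, whether counting was stranded, how multiply matching reads were handled, and how libraries were scaled. The table holds no counts, so absolute depth is unknown and count models were not used. Relative depth was taken as the commonest between-library ratio among genes detected in every library but averaging under 0.3 FPKM, and is rough.

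The log2(FPKM + 1) values were fitted in limma 3.58.1 (R 4.3.3). Testing was limited to genes averaging 1 FPKM or more, with group as the only term, a variance trend on level, two-sided tests and Benjamini-Hochberg adjustment over all 13263 tested genes. Errors are SDs of 3 libraries. Ratios between genes were tested by exact permutation over libraries.

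The members, lists, motifs and tests were chosen with earlier results of these data known. In each role, the 3 largest changes per direction among genes that passed are given in every library, with the highest gene that did not pass. From each list of related genes the 3 largest changes per direction are named. DAG1, PTK2, SRC and COL4A1 were named after their values were seen, as were the individual marker genes. Locations and promoters are RefSeq's for GRCh38.p14, the assembly hg38 also names. For genes with several starts, the motif counts used the one that comes first in the reference table of promoters. Exon overlaps and transcripts are from GENCODE release 29.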

Additional observations from a re-analysis of the deposited data

How the results depend on the processing

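Across 13 alternatives, 384 of 422 values for the 34 tested genes kept their direction and their side of the threshold, 31 were no longer past it, 4 newly passed and 3 turned in sign. The sign turned only in genes that had not passed: FBLN2 was at 0.0234 with quantile normalization and at 0.0030 without both libraries low in SNORD3A, and LAMB2 was at 0.00064 with quantile normalization. The calls lost belonged to VCAN and ITGAV (9 alternatives each), ITGA6 (6), SPOCK1 (5), FBLN1 and ITGA4 (1 each). Those that newly passed were HSPG2 and ITGB3 without the variance trend, and TIMP3 and ITGA9 without shNC replicate 1. TARDBP stayed lower and past the threshold in every alternative.

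With a mean of at least 5 FPKM required, 17 genes of the set were tested, 15 fell and 1 rose; of integrin subunits 3 fell and 0 rose, and of matrix proteins 1 rose, since fewer genes were tested. Without both libraries low in SNORD3A, 16 fell and 4 rose, 5 integrin subunits fell, and 1563 of all tested genes rose, with fewer libraries in the test. Leaving out 1 library at a time, 18 to 20 fell and 3 to 4 rose, 1 to 2 matrix proteins rose and 1 to 2 integrin subunits rose. Without a filter on low values, LAMA3 was called higher (limma adjusted p = 0.0418) and ITGA5 lower (limma adjusted p = 0.0418). The median log2 fold change of the set ran from -0.17 with quantile normalization to -0.21, while that of all tested genes moved to 0.0176 at most.

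Same-numbered libraries of the groups had deviations that correlated at r = -0.068 to 0.11, and 1 of 3 shTDP43 libraries correlated best with its own number, so the numbers were not taken to pair the samples. With a replicate block, 18 of the set fell and 4 rose, and the calls of ITGAV, ITGA6 and VCAN were lost (limma adjusted p = 0.0569, 0.0589 and 0.0969). Depth limits what can be said of LAMA3, NID2, SPOCK2, THBS2, BGN, ITGA5 and FBN2, all below a mean of 1 FPKM.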
